A study of Mus musculus with 721 samples.

Results

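The cells described here are single mouse pancreas cells with a high level of Neurog3 transcript and little hormone transcript, taken from embryos at the days named E15.5 and E13.5. A cell was a member when it passed the depth limits, held Neurog3 at 100 FPKM or more, and held Ins1, Ins2, Gcg and Ghrl each under 100 FPKM. Members were thus selected on the measured levels of these genes. Other hormone genes, such as Sst, Pyy and Sct, were left free and were high in some members. FPKM is a level corrected for transcript length and for the fragments mapped in a cell. The rule found 125 members at these 2 days. Kept cells there were 82 at E15.5 and 78 at E13.5 in run 2, and 88 at E15.5 and 68 at E13.5 in run 1. Over all days, 658 of 721 deposited cells were kept. There were 21 members at E15.5 and 43 at E13.5 in run 2, which gives the main comparison, and 31 at E15.5 and 30 at E13.5 in run 1, which serves as a check.

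Neurog3 is the basic helix-loop-helix factor that starts endocrine differentiation in the pancreas. It appears briefly in epithelial cells of the trunk, the part of the branching epithelium that also gives the ducts, and is lost again before hormones reach high levels. Cells that pass through this state early in gestation mainly give alpha cells, which make glucagon, while later ones also give beta, delta and other islet cells.

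All cells came from pancreata of embryos with an eGFP reporter of Neurog3, were sorted one per well by eGFP, and were sequenced from full-length SMART-seq cDNA as Nextera XT libraries. No treatment or other allele is given in the labels, which do not say how the reporter was placed in the genome, and the reporter is shared by both days. The labels name no animals, so each day in each run is 1 set of cells, no p-values are given, and the same embryos may have supplied both runs. A set mean is the mean FPKM over its cells. A difference is that of log2(mean FPKM + 1), E15.5 minus E13.5, and a gene is called at a difference of 1, which is 2-fold, in either direction.

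The rule fixed the level of Neurog3, which is given as a description only. Members were 25.6% of kept cells at E15.5 and 55.1% at E13.5 in run 2, and 35.2% at E15.5 and 44.1% at E13.5 in run 1. In run 2 Neurog3 ran from 103 FPKM over a median of 1169 to 10882 FPKM at E15.5, and from 109.8 over 1154 to 7995 FPKM at E13.5. In run 1 it ran from 112 over 1150 to 8233 FPKM at E15.5, and from 138 over 794 to 3759 FPKM at E13.5. The medians of both days were close in run 2, and few members stood near the limit, with 1 to 3 cells per set under 150 FPKM. The highest kept cells below the limit had 94.3 FPKM at E15.5 and 68.5 FPKM at E13.5 in run 2, and 93.03 FPKM at E15.5 and 73.1 FPKM at E13.5 in run 1. A hormone gene at 100 FPKM or more removed 4 cells at E15.5 and 11 at E13.5 in run 2, and 4 at E15.5 and 7 at E13.5 in run 1.

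Day and sex could not be told apart in these cells. Xist, the RNA of the inactive X chromosome, averaged 0 FPKM at E15.5 and 32.5 FPKM at E13.5 in run 2, and 0.110 FPKM at E15.5 and 55.9 FPKM at E13.5 in run 1. Eif2s3y, a translation factor gene of the Y chromosome, averaged 57.9 FPKM at E15.5 in run 2 and 76.6 FPKM at E15.5 in run 1, and was listed at 0 in every E13.5 member of both runs. Members found by the same rule at E14.5 carried Xist at 31.1 FPKM in run 2 and 27.6 FPKM in run 1, with Eif2s3y listed at 0, so E14.5 and E13.5 share this feature and E15.5 stands apart.

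The sets also differed in depth and composition. Median fragments per member were 408774 at E15.5 and 540599 at E13.5 in run 2, and 614509 at E15.5 and 879448 at E13.5 in run 1. Median genes at 1 FPKM or more per member were 5251 at E15.5 and 6626 at E13.5 in run 2, and 4680 and 5056.5 in run 1. Fewer genes were thus found per E15.5 member. Shares of cells at 10 FPKM given below were not set beside such shares over all genes. The median share of FPKM in predicted and small RNA genes was 44.9% at E15.5 and 43.7% at E13.5 in run 2, against 13.9% at E15.5 and 9.85% at E13.5 in run 1. For GC content, the log2 level of each gene was taken relative to its mean over all sets of E13.5, E14.5 and E15.5. Transcripts with over 60% GC were low at E13.5 in run 1. There the median of their relative levels lay 1.79 below that of transcripts with 40 to 50% GC (-1.79), against 0.16 above at E15.5. In run 2 it lay 0.74 above at E15.5 and 0.54 above at E13.5. Rpl13, a ribosomal protein gene, averaged 2205 FPKM at E15.5 and 130 FPKM at E13.5 in run 1, against 1720 FPKM at E15.5 and 1346 FPKM at E13.5 in run 2. Markers of leukocytes, endothelium and mesenchyme were low but not absent. Ptprc reached 10 FPKM in 2 of 21 cells at E15.5 and 2 of 43 at E13.5 in run 2, and Cdh5 and Col1a1 in no cell of either set. Col3a1, of mesenchyme, differed by 2.79 and C1qa, of leukocytes, by 1.75 in run 2, and by -0.16 and -0.45 in run 1. Of 4 leukocyte, 4 endothelium and 3 mesenchyme markers compared, 2, 1 and 2 were called higher and 1, 2 and 1 lower in run 2. Over all genes 10.4% were called higher and 24.5% lower there. The summed mean level of 12 leukocyte markers was 9.04 FPKM at E15.5 and 6.89 FPKM at E13.5 in run 2, that of 11 endothelium markers 39.6 and 23.1 FPKM, and that of 12 mesenchyme markers 13.6 and 5.03 FPKM. In run 1 these sums were 8.89 FPKM at E15.5 and 11.3 FPKM at E13.5 for leukocytes, 2.82 and 13.9 FPKM for endothelium, and 5.55 and 12.9 FPKM for mesenchyme. The part of other cell types in the differences was not tested.

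Over the 14396 genes compared, 10.4% were called higher and 24.5% lower at E15.5 in run 2, and 19.3% were called higher and 25% lower in run 1. In both runs 400 genes (2.78%) were called higher and 1042 (7.24%) lower. The genes called higher in both runs were 26.8% of those in run 2 and 14.4% of those in run 1, and the genes called lower in both were 29.5% of those in run 2 and 28.95% of those in run 1. A further 258 genes higher in run 2 were called lower in run 1, and 601 lower in run 2 were called higher in run 1. The median gene differed by -0.30 in run 2 and -0.17 in run 1, and list counts below are set beside these values. Calls depended on single cells, the higher ones most in run 2. Without the highest cell of each set the genes called higher in run 2 numbered 532 in place of 1493, and those called lower 4026 in place of 3530. Of the genes followed through all settings and called in both runs, 16 of 40 lower ones stayed past 2-fold in both under every alternative. So did 7 of 33 higher ones. The genes followed were a chosen set, and the share that held among all 1042 lower and 400 higher genes was not taken. They include some not named elsewhere here, and Ins2, which the rule used. The lower ones that held include Slc38a5, Sct, Timp3, Lipc and Dnmt3a, and the higher ones Krt18, Cldn3, Rbp4, Mt1 and Hist1h1e. All 5 Serpina1 genes, near copies of one another, also count among the lower ones that held. Sex-linked genes are also counted as held, with Xist among the lower ones and Ddx3y and Eif2s3y among the higher.

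**Figure D1:**
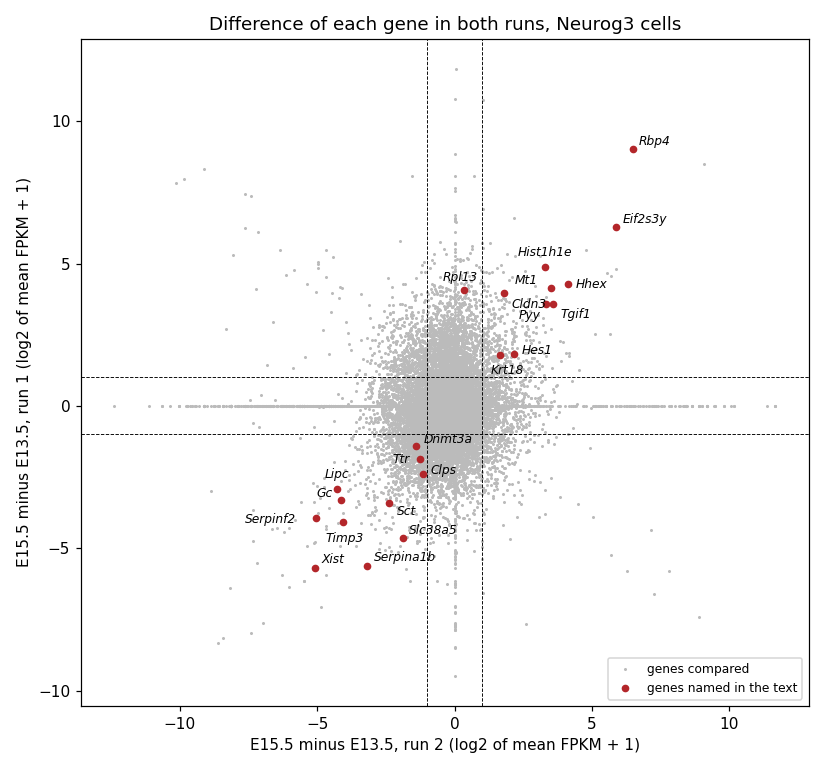
Difference of each compared gene, E15.5 minus E13.5, in run 2 (horizontal axis) and run 1 (vertical axis), on the scale of log2(mean FPKM + 1). Dashed lines mark 2-fold, and a gene listed at 0 on one day sits where the added 1 FPKM puts it. The cloud is broad, genes called higher in both runs lie at the upper right, genes called lower in both at the lower left, and Rpl13 stands 4.07 above 0 in run 1 and 0.35 above it in run 2.

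Slc38a5 was found in nearly every E13.5 member and in a minority at E15.5. This gene, a glutamine transporter of the plasma membrane, had 0, 3.13 and 6189 FPKM in the lowest, median and highest cell at E15.5 in run 2, against 4.18, 585 and 13496 FPKM at E13.5. Run 1 gave 0, 4.33 and 5552 FPKM at E15.5, against 14.8, 3180 and 45660 FPKM at E13.5. The ranges overlap, since a few E15.5 cells kept high levels, while the median E15.5 cell lay below the lowest E13.5 cell in both runs. It reached 10 FPKM in 6 of 21 cells at E15.5 (28.6%, 95% interval 11.3 to 52.2%) and in 41 of 43 at E13.5 (95.3%, 84.2 to 99.4%) in run 2, and in 9 of 31 at E15.5 (29.03%, 14.2 to 48.04%) and 30 of 30 at E13.5 (88.4 to 100%) in run 1. These are exact Clopper-Pearson intervals, as are all intervals given here, and they cover counting error only. The difference was -1.90 in run 2 and -4.65 in run 1.

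Sct encodes secretin, a gut peptide hormone. In run 2 it had 0, 0 and 468 FPKM in the lowest, median and highest cell at E15.5, against 0, 156 and 1370.5 FPKM at E13.5. In run 1 it had 0, 0 and 1105 FPKM at E15.5, against 0, 850 and 4708 FPKM at E13.5. The groups overlap, and cells without the transcript were the majority at E15.5 and the minority at E13.5. Cells at 10 FPKM or more were 6 of 21 at E15.5 and 35 of 43 at E13.5 in run 2, and 9 of 31 at E15.5 and 23 of 30 at E13.5 in run 1, with differences of -2.38 and -3.41. Within E13.5 members Sct and Slc38a5 were found together in 33 of the 35 Sct cells of run 2 and in all 23 of run 1. At E15.5 they were together in 2 of 6 Sct cells in run 2 and 4 of 9 in run 1.

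Of 13 alpha cell genes compared, 0 were called higher and 8 lower at E15.5 in run 2, and 1 higher and 6 lower in run 1. Their median difference was -1.37 in run 2 and -0.79 in run 1, beside -0.30 and -0.17 over all genes. Over the alternative settings it ran from -1.98 to -0.48 in run 2 and from -1.64 to -0.02 in run 1. Slc38a5, Gc, Ttr and Wnk3 were among those lower in both runs, and Gc and Ttr also count among the liver-type proteins. Gcg itself was part of the rule and gives no evidence. Gc, the vitamin D carrier of plasma, reached 10 FPKM in 0 of 21 cells at E15.5 and 10 of 43 at E13.5 in run 2, and in 4 of 31 at E15.5 and 7 of 30 at E13.5 in run 1. Ttr, the thyroxine carrier transthyretin, was found in most cells of all sets, averaged 213 FPKM at E15.5 and 506 FPKM at E13.5 in run 2, and its difference of -1.24 there was -0.34 without the cells that held Fev, a factor of the next endocrine precursor step.

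**Figure D2:**
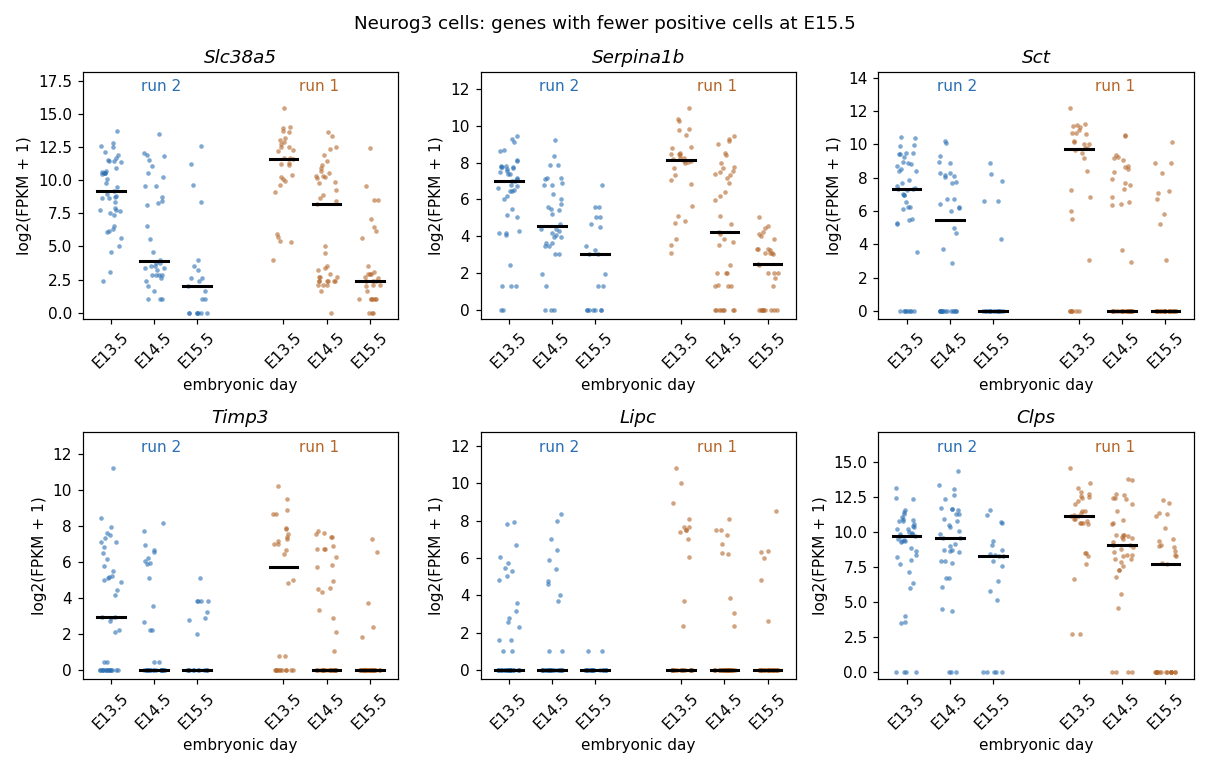
Level of 6 genes in each Neurog3 cell, as log2(FPKM + 1), by embryonic day for run 2 (blue) and run 1 (orange), with bars at the median. Slc38a5, Serpina1b and Sct are high in most E13.5 cells and low or at 0 in most E15.5 cells of both runs, and E14.5 cells hold both states.

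Genes for secreted proteins typical of liver differed in both directions. Among the lower ones at E15.5 was the Serpina1 family, which encodes forms of alpha-1-antitrypsin, a protease inhibitor of plasma. Serpina1b had 0, 7.26 and 109 FPKM in the lowest, median and highest cell at E15.5 in run 2, against 0, 126 and 697 FPKM at E13.5. Run 1 gave 0, 4.56 and 32.4 FPKM at E15.5, against 7.56, 286 and 2037 FPKM at E13.5. In run 1 the highest E15.5 cell lay far below the median E13.5 cell, and in run 2 it lay below that median as well. Shares at 10 FPKM or more were 8 of 21 at E15.5 (38.1%, 18.1 to 61.6%) and 37 of 43 at E13.5 (86.05%, 72.1 to 94.7%) in run 2, and 7 of 31 at E15.5 (22.6%, 9.59 to 41.1%) and 29 of 30 at E13.5 (96.7%, 82.8 to 99.9%) in run 1. The difference was -3.17 in run 2 and -5.61 in run 1. The relatives Serpina1a, Serpina1c, Serpina1d and Serpina1e differed by -3.03, -1.75, -2.70 and -2.51 in run 2 and by -4.14, -2.73, -4.82 and -3.26 in run 1. These genes are near copies, in which 33.6% to 71.1% of the 50-base stretches of a longest transcript occur in another of the 5, so how fragments were divided among them is uncertain.

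The 5 genes lie in one cluster on chromosome 12 and also share sequence near their start sites, shown because the members of the family differed together. The windows below are read 5′ to 3′ on the minus strand from RefSeq promoters of GRCm38.p6, the build named mm10 in the labels, and the capitals mark GTTAAT, the half-site of the hepatocyte nuclear factor 1 family.
Serpina1a at chr12:103863608-103863667: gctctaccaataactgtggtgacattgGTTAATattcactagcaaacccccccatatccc
Serpina1b at chr12:103738183-103738242: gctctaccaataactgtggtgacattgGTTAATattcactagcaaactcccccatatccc
Serpina1c at chr12:103904945-103905004: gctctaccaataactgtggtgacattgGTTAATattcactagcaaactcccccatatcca
Serpina1d at chr12:103773617-103773676: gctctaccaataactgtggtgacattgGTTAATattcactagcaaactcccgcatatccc
Serpina1e at chr12:103956943-103957002: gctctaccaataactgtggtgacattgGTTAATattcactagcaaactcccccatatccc
The windows of Serpina1a, Serpina1b, Serpina1c and Serpina1d run past the start site by a few bases, and that of Serpina1e ends before it. On either strand GTTAAT was found in 2332 of 32851 promoters of the same length in that table (7.10%). A match describes letters only, and binding was not measured.

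Of 17 liver-type secreted proteins compared, 4 were called higher and 9 lower at E15.5 in run 2, and 5 higher and 9 lower in run 1, with medians of -1.24 and -1.29. Their summed mean level was 2859 FPKM at E15.5 and 1942 FPKM at E13.5 in run 2, and 2228 FPKM at E15.5 and 4176 FPKM at E13.5 in run 1, in opposite directions. Over the alternative settings the list median ran from -1.74 to -0.45 in run 2 and from -1.98 to 0 in run 1. The 7 lower in both runs were Serpina1a, Serpina1b, Serpinf2, Gc, Ttr, Ambp and F2. Serpinf2, which encodes the plasmin inhibitor alpha-2-antiplasmin, reached 10 FPKM in 0 of 21 cells at E15.5 and 12 of 43 at E13.5 in run 2, and in 1 of 31 at E15.5 and 11 of 30 at E13.5 in run 1. The 4 higher in both runs were Rbp4, Apom, Mt1 and Mt2. Mt1, a metallothionein that binds zinc and copper, reached 10 FPKM in 5 of 21 cells at E15.5 and 4 of 43 at E13.5 in run 2, and in 12 of 31 at E15.5 and 4 of 30 at E13.5 in run 1, with differences of 3.50 and 4.13. The call of Apom, an apolipoprotein, rests on single cells, since its difference of 2.54 in run 2 was -0.21 without the highest cell of each set.

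Further genes with the largest reductions at E15.5 had other functions. Timp3, an inhibitor of matrix metalloproteinases, reached 10 FPKM in 5 of 21 cells at E15.5 and 20 of 43 at E13.5 in run 2, and in 3 of 31 at E15.5 and 17 of 30 at E13.5 in run 1, with differences of -4.05 and -4.09. Lipc, the hepatic lipase, reached it in 0 of 21 at E15.5 and 10 of 43 at E13.5 in run 2, and in 5 of 31 at E15.5 and 12 of 30 at E13.5 in run 1. Oprl1, the receptor of nociceptin, did so in 0 of 21 at E15.5 and 9 of 43 at E13.5 in run 2, and in 1 of 31 at E15.5 and 7 of 30 at E13.5 in run 1. Mcoln3, Ggt1, Snx31 and Chrng were also among the 12 lowest, each with at most 6 cells at 10 FPKM in any of the 4 sets and 0 such cells at E15.5. Clps, the colipase of the acinar enzyme set, reached 10 FPKM in 16 of 21 cells at E15.5 and 39 of 43 at E13.5 in run 2, and in 16 of 31 at E15.5 and 28 of 30 at E13.5 in run 1, with differences of -1.15 and -2.39. After GC adjustment the Clps difference in run 2 was -0.90. Of 11 tip and acinar genes compared, 3 were called higher and 6 lower in run 2, and 6 higher and 4 lower in run 1. The medians, -1.15 and 1.06, had opposite signs. In both runs Clps, Cela1 and Pnliprp1 were lower and Ctrb1 and Nr5a2 higher, and of the defining acinar genes Cpa1 reached 10 FPKM in 1 of 21 cells at E15.5 and 2 of 43 at E13.5 in run 2.

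Sst encodes somatostatin, the delta cell hormone, and was left free by the rule. It was listed at 0 in all 43 E13.5 members of run 2 and all 30 of run 1, so no fold is given. At E15.5 it reached 10 FPKM in 3 of 21 cells in run 2 (14.3%, 3.05 to 36.3%) and 8 of 31 in run 1 (25.8%, 11.9 to 44.6%). In each run, 1 cell held nearly all of it, with 11276 FPKM in run 2 (99.4% of the sum over cells) and 10468 FPKM in run 1 (92.5%). Hhex, the homeobox factor that maintains delta cells, reached 10 FPKM in 4 of 21 cells at E15.5 and 1 of 43 at E13.5 in run 2, and in 4 of 31 at E15.5 and 0 of 30 at E13.5 in run 1. Sst and Hhex were in the same cell in 1 of 3 Sst cells of run 2 and 1 of 8 of run 1.

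The Sst promoter is shown because its transcript was read only among E15.5 members and in 2 E14.5 cells at 10 FPKM or more. The window is read 5′ to 3′ on the minus strand from RefSeq promoters of GRCm38.p6, and the capitals mark TGACGTCA, the cyclic AMP response element.
Sst at chr16:23890858-23890919: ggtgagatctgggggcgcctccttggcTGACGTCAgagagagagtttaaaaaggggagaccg
That element was found in 588 of 32851 promoters of the same length (1.79%), and its letters are no measure of binding.

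Rbp4, the retinol carrier of plasma, had 0 as its lowest cell in all sets, with 7.18 FPKM in the median and 23120 FPKM in the highest cell at E15.5 in run 2, against 0 and 189 FPKM at E13.5. In run 1 the median and highest cell had 5.11 and 16196 FPKM at E15.5, against 0 and 2.55 FPKM at E13.5. Cells at 10 FPKM or more were 7 of 21 at E15.5 (33.3%, 14.6 to 56.97%) and 11 of 43 at E13.5 (25.6%, 13.52 to 41.2%) in run 2, so shares overlap there and the difference of 6.49 comes from a few very high E15.5 cells. In run 1 they were 14 of 31 at E15.5 (45.2%, 27.3 to 63.97%) and 0 of 30 at E13.5 (0 to 11.6%), with a difference of 9.01. Rbp4 and Pyy, which encodes peptide YY, were found together in 6 of 7 Rbp4 cells at E15.5 in run 2 and 8 of 14 in run 1, against 3 of 11 at E13.5 in run 2. Pyy reached 10 FPKM in 9 of 21 cells at E15.5 and 13 of 43 at E13.5 in run 2, and in 12 of 31 at E15.5 and 5 of 30 at E13.5 in run 1. Its differences were 3.31 and 3.58, and 1 E15.5 cell of run 2 with 123692 FPKM held 87.8% of the sum. The difference of Pyy was 0.50 in run 2 without cells that held Sst, and turned to -1.08 in run 1 with the Neurog3 limit at 50 FPKM.

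Of 12 hormone and islet peptide genes compared, 4 were called higher and 6 lower at E15.5 in run 2, and 7 higher and 2 lower in run 1, with medians of -0.91 and 1.95. The 4 higher in both runs were Sst, Pyy, Iapp and Ins2. The last was held under 100 FPKM by the rule, so it gives no evidence. Its place in these counts and its shares are a description only. Ins2 reached 10 FPKM in 6 of 21 cells at E15.5 and 3 of 43 at E13.5 in run 2, and in 12 of 31 at E15.5 and 0 of 30 at E13.5 in run 1. Iapp, the islet amyloid polypeptide co-secreted with insulin, differed by 1.71 in run 2, where 1 E15.5 cell held 97.6% of its sum, and by -0.68 without the highest cell of each set. The 2 lower in both runs were Sct and Nmb, which encodes neuromedin B.

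**Figure D3:**
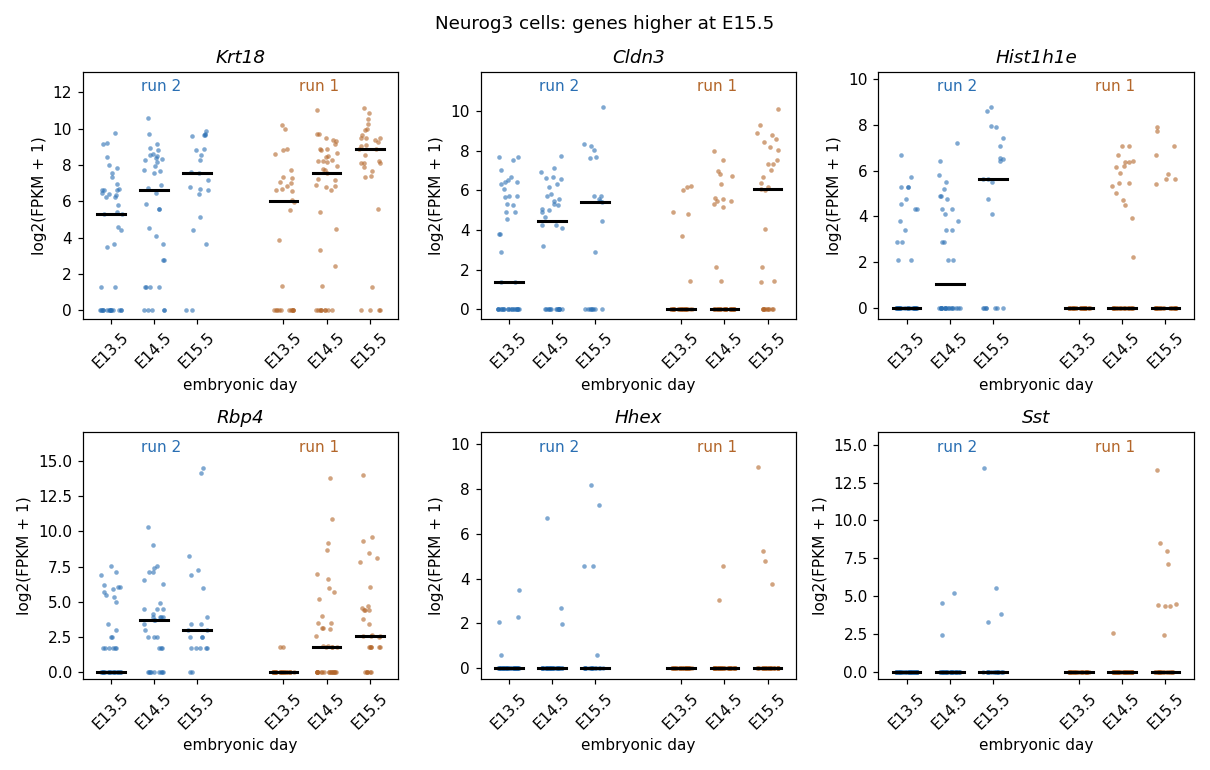
Level of 6 genes in each Neurog3 cell, as log2(FPKM + 1), by embryonic day for run 2 (blue) and run 1 (orange), with bars at the median. Krt18 and Cldn3 have higher medians at E15.5 in both runs, Hist1h1e does in run 2, and Rbp4, Hhex and Sst are carried by few cells, with Sst at 0 in every E13.5 cell.

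Transcripts of the simple epithelium were higher at E15.5. Krt18, a keratin of duct and trunk epithelium, had 0, 186 and 945 FPKM in the lowest, median and highest cell at E15.5 in run 2, against 0, 37.6 and 865 FPKM at E13.5. Run 1 gave 0, 462 and 2284 FPKM at E15.5, against 0, 63.8 and 1175 FPKM at E13.5. The ranges overlap almost fully, and the medians are apart in the same direction in both runs. Krt18 reached 10 FPKM in 19 of 21 cells at E15.5 (90.5%, 69.6 to 98.8%) and 26 of 43 at E13.5 (60.5%, 44.4 to 75.02%) in run 2, and in 26 of 31 at E15.5 (83.9%, 66.3 to 94.5%) and 18 of 30 at E13.5 (60%, 40.6 to 77.3%) in run 1. The difference was 1.65 in run 2 and 1.78 in run 1, and 1.55 to 3.12 over all alternatives of both runs. Cldn3, a tight junction claudin, averaged 129 FPKM at E15.5 and 36.7 FPKM at E13.5 in run 2, and 160 FPKM at E15.5 and 9.31 FPKM at E13.5 in run 1. Its transcript has 62.7% GC. The difference was 1.79 in run 2 and 3.97 in run 1, and 1.95 and 3.48 after GC adjustment. The adjustment takes off the median of a broad GC class. It can leave part of the low level of GC-rich transcripts at E13.5 in run 1, and how much was not tested.

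Of 28 trunk and duct genes compared, 8 were called higher and 3 lower at E15.5 in run 2, and 13 higher and 2 lower in run 1. Their medians were 0.43 and 0.66, beside -0.30 and -0.17 over all genes. Over the alternative settings they ran from -0.11 to 0.72 in run 2 and from 0.27 to 1.53 in run 1. The 6 higher in both runs were Krt18, Cldn3, Anxa2, Ehf, Nr5a2 and Hes1, and 0 were lower in both. Anxa2, a membrane-binding annexin, reached 10 FPKM in 4 of 21 cells at E15.5 and 3 of 43 at E13.5 in run 2, and in 6 of 31 at E15.5 and 3 of 30 at E13.5 in run 1. Sox9, the trunk progenitor factor that defines this list, was not called in run 2, with 6.49 FPKM at E15.5 and 5.46 FPKM at E13.5, and averaged 15.54 FPKM at E15.5 and 6.68 FPKM at E13.5 in run 1. Hes1, the Notch target that represses Neurog3, was low throughout and reached 10 FPKM in 3 of 21 cells at E15.5 and 0 of 43 at E13.5 in run 2, and in 2 of 31 at E15.5 and 0 of 30 at E13.5 in run 1.

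Of 16 Neurog3 progenitor markers compared, 2 were called higher and 0 lower at E15.5 in run 2, and 5 higher and 0 lower in run 1, with medians of 0.11 and 0.50, beside -0.30 and -0.17 over all genes. Without the highest cell of each set the median in run 2 was -0.33. The single one called in both was Neurod2, a relative of Neurog3, which reached 10 FPKM in 6 of 21 cells at E15.5 and 3 of 43 at E13.5 in run 2, and in 9 of 31 at E15.5 and 1 of 30 at E13.5 in run 1. Hes6, a Neurog3 target, averaged 366 FPKM at E15.5 and 451 FPKM at E13.5 in run 2, and 422 FPKM at E15.5 and 23.1 FPKM at E13.5 in run 1, where GC-rich transcripts were low at E13.5. Its difference of 4.13 in run 1 was 3.65 after GC adjustment, with the limit given for Cldn3. The reporter transcript eGFP averaged 42.8 FPKM at E15.5 and 36.1 FPKM at E13.5 in run 2, and 71.5 FPKM at E15.5 and 38.6 FPKM at E13.5 in run 1, with differences of 0.24 and 0.87. Dll1, the Notch ligand switched on by Neurog3, differed by 0.01 and 0.67.

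Of 27 endocrine transcription factors compared, 4 were called higher and 5 lower at E15.5 in run 2, and 3 in each direction in run 1, with medians of -0.20 and -0.16, close to those of all genes. Hhex and Neurod2 were higher in both runs. Pax4, a paired homeobox factor required for the beta and delta cell fates, had 0, 316 and 1437 FPKM in the lowest, median and highest cell at E15.5 in run 2, against 0, 647 and 3835 FPKM at E13.5. In run 1 it had 0, 647 and 5350 FPKM at E15.5, against 0, 1948 and 6746 FPKM at E13.5. It was present in most cells of both days, and its difference of -1.10 in run 2 and -0.83 in run 1 passed 2-fold in run 2 only, where it was -0.80 after centring on the median of all genes. Neurod1 differed by -0.64 and -0.59, Insm1 by 0.75 and 0.02, Nkx2-2 by 0.26 and 0.16, Nkx6-1 by -0.38 and 0.31, and Fev by -0.18 and 0.57. Isl1, a factor of maturing islet cells, averaged 178 FPKM at E15.5 and 40.8 FPKM at E13.5 in run 2, and 140 FPKM at E15.5 and 243 FPKM at E13.5 in run 1, in opposite directions.

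The Notch pathway, through which Neurog3 cells inhibit their neighbours, had 19 genes compared, with 3 called higher and 5 lower at E15.5 in run 2, 4 higher and 2 lower in run 1, and medians of -0.73 and -0.21. Hes1 and Dner were higher and Rbpj and Dtx4 lower in both runs. Rbpj, the DNA-binding partner of Notch and of Ptf1a, reached 10 FPKM in 2 of 21 cells at E15.5 (9.52%, 1.17 to 30.4%) and 22 of 43 at E13.5 (51.2%, 35.5 to 66.7%) in run 2, and in 12 of 31 at E15.5 (38.7%, 21.9 to 57.8%) and 18 of 30 at E13.5 (60%, 40.6 to 77.3%) in run 1. Its differences were -1.50 and -1.53, and -0.98 in run 1 when FPKM were rescaled per cell.

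Dnmt3a, a de novo DNA methyltransferase, had 2.63, 47.98 and 535 FPKM in the lowest, median and highest cell at E15.5 in run 2, against 5.59, 165 and 1381 FPKM at E13.5. Run 1 gave 0, 107 and 959 FPKM at E15.5, against 29.97, 269 and 1715 FPKM at E13.5. The ranges overlap, the medians are lower at E15.5 in both runs, and the differences were -1.41 and -1.43. Arid3b, an AT-rich interaction domain factor, reached 10 FPKM in 1 of 21 cells at E15.5 and 22 of 43 at E13.5 in run 2, and in 3 of 31 at E15.5 and 16 of 30 at E13.5 in run 1. Of 23 heterochronic and chromatin genes compared, 0 were called higher and 9 lower in run 2, and 3 higher and 10 lower in run 1, with medians of -0.51 and -0.53. Over all genes more were likewise called lower (24.5% in run 2 and 25% in run 1) than higher (10.4% and 19.3%), and the list medians were -0.26 and -0.19 after GC adjustment. The 4 lower in both were Dnmt3a, Dnmt3b, Arid3a and Arid3b. Dnmt3b and Arid3a each fell under 2-fold in a run in 7 of 16 alternative settings.

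Mki67 and Top2a, markers of cycling cells, were found in a minority of members at either day. Mki67 reached 10 FPKM in 1 of 21 cells at E15.5 and 0 of 43 at E13.5 in run 2, and in 2 of 31 at E15.5 and 1 of 30 at E13.5 in run 1. Top2a reached it in 4 of 31 cells at E15.5 and 4 of 30 at E13.5 in run 1. Leaving out cells with either marker at 10 FPKM kept 19 of 21 members at E15.5 and 36 of 43 at E13.5 in run 2. In run 1 it kept 27 of 31 at E15.5 and 26 of 30 at E13.5. As Mki67 reached 10 FPKM in 0 of 43 E13.5 cells of run 2, the cells left out there at E13.5 all held Top2a. They were a larger share of members than the cells left out at E15.5. The mean of Top2a was nevertheless higher at E15.5 in run 2, with a difference of 1.17. Of 27 G2 and M phase genes compared, 13 were called higher and 2 lower at E15.5 in run 2, and 2 higher and 6 lower in run 1, with medians of 0.88 and -0.48 and 0 called in both in either direction. Cdk1, the mitotic kinase, reached 10 FPKM in 3 of 21 cells at E15.5 and 0 of 43 at E13.5 in run 2, and in 3 of 31 at E15.5 and 3 of 30 at E13.5 in run 1. Of 22 S phase genes, 3 were called higher and 3 lower in run 2, and 3 higher and 7 lower in run 1, with medians of -0.26 and -0.31. Mcm4, a subunit of the replicative helicase, was lower in both, with differences of -1.70 and -1.65, as was E2f1, and Cdc6 was higher. Of 16 inhibitors and G1 genes, 3 were called higher and 0 lower in run 2, and 5 higher and 3 lower in run 1, with medians of 0.38 and 0.15. Cdkn1a, the p21 inhibitor, averaged 1563 FPKM at E15.5 and 749 FPKM at E13.5 in run 2, and 714 FPKM at E15.5 and 1142 FPKM at E13.5 in run 1, in opposite directions. Cdkn1c, the p57 inhibitor, differed by -0.56 and -1.33.

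Hist1h1e, a linker histone gene, was among the higher genes that held under all alternatives. In run 2 its lowest, median and highest cell had 0, 48.1 and 436 FPKM at E15.5, against 0, 0 and 103 FPKM at E13.5. In run 1 they had 0, 0 and 239 FPKM at E15.5, and the gene was listed at 0 in all 30 E13.5 members. It reached 10 FPKM in 14 of 21 cells at E15.5 (66.7%, 43.03 to 85.4%) and 10 of 43 at E13.5 (23.3%, 11.8 to 38.6%) in run 2, with a difference of 3.28, and in 8 of 31 at E15.5 (25.8%, 11.9 to 44.6%) in run 1. Tgif1, a homeobox repressor of TGF-beta signalling, reached 10 FPKM in 5 of 21 cells at E15.5 and 2 of 43 at E13.5 in run 2, and in 3 of 31 at E15.5 and 0 of 30 at E13.5 in run 1. The others of the 12 highest, Hist1h3d, Cym, Cox4i2, Ier3 and Ephx4, reached 10 FPKM in at most 5 cells of any set.

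**Figure D4:**
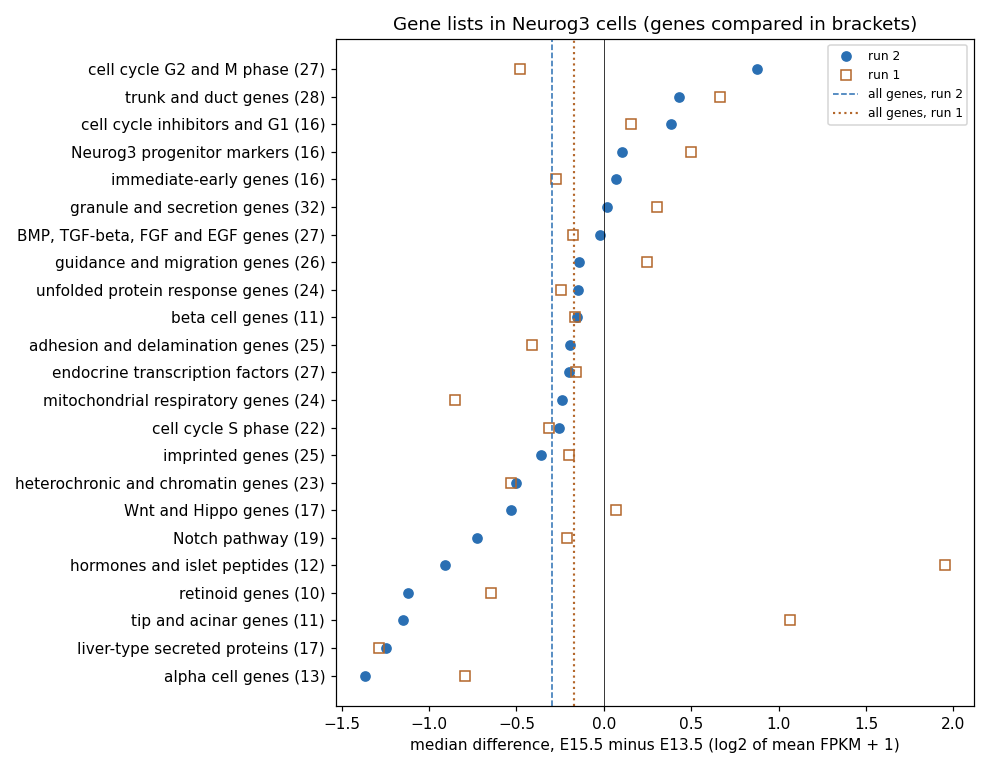
Median difference, E15.5 minus E13.5, of each gene list in run 2 (filled circles) and run 1 (open squares), on the scale of log2(mean FPKM + 1), with the number of genes compared in brackets and lines at the median of all genes. Alpha cell genes (-1.37 and -0.79) and liver-type secreted proteins (-1.24 and -1.29) lie left of both lines, trunk and duct genes (0.43 and 0.66) lie right of them, and the hormone, acinar and G2 and M phase lists change side between runs.

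Of 10 retinoid genes compared, 2 were called higher and 5 lower at E15.5 in run 2, and 1 higher and 4 lower in run 1, with medians of -1.12 and -0.64. Rbp4 was higher in both, and Rbp2, Crabp2 and Rxra were among those lower in both. Of 25 adhesion and delamination genes, 1 was called higher and 7 lower in run 2, and 3 higher and 6 lower in run 1, with medians of -0.20 and -0.41. Ctnnd1, the p120 catenin that stabilises cadherins, and Tjp1, a scaffold of tight junctions, were lower in both with Fn1 and L1cam. Ctnnd1 reached 10 FPKM in 5 of 21 cells at E15.5 and 25 of 43 at E13.5 in run 2, and in 9 of 31 at E15.5 and 17 of 30 at E13.5 in run 1.

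Of 11 beta cell genes compared, 2 were called higher and 2 lower in run 2, and 3 higher and 2 lower in run 1, with medians of -0.16 and -0.16. Of 32 granule and secretion genes, 5 were called higher and 4 lower in run 2, and 9 higher and 7 lower in run 1. Their medians of 0.02 and 0.31 lay above those of all genes in both runs, and without the highest cell of each set that of run 2 was -0.38. Chgb, the granule protein chromogranin B, differed by -1.40 in run 2 and -0.34 in run 1. Of 25 imprinted genes, 2 were called higher and 7 lower in run 2, and 5 higher and 7 lower in run 1, with medians of -0.36 and -0.20. Impact, an inhibitor of the kinase Gcn2, differed by -2.23 and -2.64, and Mest was the other way. Of 26 guidance and migration genes, 2 were called higher and 7 lower in run 2, and 3 higher and 6 lower in run 1, with medians of -0.14 and 0.25. Tubb3, the neuronal tubulin, differed by -1.01 and -1.18, and by -0.84 in run 2 after GC adjustment.

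Of 17 Wnt and Hippo genes, 0 were called higher and 2 lower in run 2, and 4 higher and 1 lower in run 1, with medians of -0.53 and 0.07. Of 27 BMP, TGF-beta, FGF and EGF genes, 5 were called higher and 3 lower in run 2, and 6 higher and 8 lower in run 1, with medians of -0.02 and -0.17. Id1, a BMP target, and Dusp6, a target of FGF signalling, were higher in both runs with Spry2, but 1 E15.5 cell held 77.1% of the Id1 sum in run 2. Id1 turned to -0.25 in run 2 with the mean of log2(FPKM + 1) over cells and to -0.54 in run 1 without cells that held Fev, where Dusp6 turned to -1.27. With Neurog3 at 200 FPKM or more Dusp6 was at -0.23 in run 1. Of 24 unfolded protein response genes, 2 were called in each direction in run 2 and 7 in each in run 1, with medians of -0.15 and -0.25. Of 16 immediate-early genes, 5 were called higher and 4 lower in run 2, and 3 higher and 5 lower in run 1, with medians of 0.07 and -0.27. Jun was higher in both and Fos lower in both, but Fos fell under 2-fold in a run in 7 of 16 alternative settings. Of 24 mitochondrial respiratory genes, 0 were called in run 2, and 2 higher and 9 lower in run 1, with medians of -0.24 and -0.85.

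Members of E14.5, found by the same rule, gave 36 cells in run 2 and 41 in run 1. Slc38a5 reached 10 FPKM in 95.3%, 61.1% and 28.6% of members at E13.5, E14.5 and E15.5 in run 2, and in 100%, 58.5% and 29.03% in run 1. Sct did so in 81.4%, 58.3% and 28.6% in run 2, and in 76.7%, 46.3% and 29.03% in run 1. Shares of these genes were lower at each later day. Krt18 reached 10 FPKM in 60.5%, 69.4% and 90.5% in run 2, and in 60%, 70.7% and 83.9% in run 1. Sst reached it in 2 of 36 E14.5 members of run 2 and 0 of 41 of run 1. For 503 genes lower in both runs with at least 10 FPKM in a set, E14.5 means were set beside those of the other days. They lay between for 67.2% in run 2 and 71.97% in run 1, and among 200 such higher genes for 58.5% and 66.5%. These genes were chosen by their E15.5 and E13.5 means in the same cells, which favours a middle value. No share over all genes was taken, so these percentages are a description only.

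The kept cells outside the rule, which include hormone cells and other types in proportions that differ by day, are set beside the members without a test. There the E15.5 minus E13.5 difference of Slc38a5 was -1.24 in run 2 and -2.34 in run 1, and that of Sct -2.09 and -2.21, so both were also lower outside the members. Krt18 differed by 1.63 and 0.73 there, and Cldn3 by 0.16 and 2.01. Sst was higher at E15.5 there as well, by 9.12 and 9.90.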

How the data were processed

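The authors deposited FPKM values per gene and cell, made with TopHat2 2.0.13 and Cufflinks 2.2.0 on mm10 per the submitters' processing notes, with an annotation not given in the sources used here. SMART-seq has no molecular identifiers or strand marking, so copies of 1 molecule and sense or antisense reads cannot be told apart, and FPKM are relative to all fragments of a cell. The gene name column of the other unit held identifiers, deposited beside the values. Each of the 721 columns was assigned to its cell through the column name. Kept cells had at least 100000 fragments (the total mass in the labels) and 1500 genes at 1 FPKM or more. Sorting put 1 cell in each well, and no doublet caller was run. Between days, members shared 8 index pairs in run 2 and 7 in run 1, which mark wells and not cells; the highest rank correlation between runs was 0.580 at E13.5 and 0.636 at E15.5, and no pair of cells stood apart.

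A gene was compared when its mean over the 4 sets reached 1 FPKM. Differences used a pseudocount of 1 and so understate those of low genes. GC adjustment subtracted the median of each of 10 GC classes (GENCODE vM21, same build). Python 3.11.15, pandas 2.3.3, numpy 2.4.6 and scipy 1.17.1 were used, and the calculation was tested on simulated data. The members, gene lists and settings were chosen with earlier results of these data known. Named were the 12 genes with the largest difference in either direction, ranked by the smaller of both runs, with at least 10 FPKM in a set; up to 4 members of each list by their difference in run 2; and a set of endocrine and cycle genes in every case. Predicted, ribosomal, mitochondrial and sex-linked genes were not ranked. Some genes that the rule names are not reported here. Genes that complete a count, and Rpl13, Hes6, Serpina1c, Serpina1d, Serpina1e, Ptprc, Cdh5, Col1a1, Col3a1 and C1qa, stand outside that rule. Those other than the cell type markers Ptprc, Cdh5 and Col1a1 were chosen after their values were seen.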

Additional observations from a re-analysis of the deposited data

How the results depend on the processing

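No paired analysis was possible because the labels name no animals and no number links a cell of one day to a cell of the other. Counts of genes past 2-fold moved with the settings. With a pseudocount of 10 they were 365 higher and 905 lower in run 2, 958 and 1383 in run 1, and 64 and 156 in both, and with a pseudocount of 0.1 the higher in both were 625. With the mean of log2(FPKM + 1) over cells they were 176 and 1623 in run 2 (9.78% of calls higher, against 29.7%), 1054 and 2031 in run 1, and 55 and 576 in both. Without the highest cell of each set the higher were 532 in run 2 (11.7% of calls) and 176 in both. With a mean of at least 10 FPKM they were 500 and 1358 in run 2, 1116 and 1655 in run 1, and 139 and 393 in both. With FPKM rescaled per cell the higher were 2694 in run 2, 4797 in run 1 and 835 in both, the share of higher calls in run 1 was 65.8% in place of 43.6%, and the median gene was at -0.13 and 0.09. Those lower in both were 663 after centring (44.7% of calls higher in run 2), 647 after GC adjustment (44.7%) and 1565 with hormone genes under 10 FPKM.

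Reversed were Id1 in run 2 (-0.25 with the mean of logs, -0.23 without cells with Sst) and run 1 (-0.54 without cells with Fev); Top2a in run 2 (-0.31 with the mean of logs, -1.04 without the highest cell, -0.49 without cells with Mki67 or Top2a); and Iapp in run 2 (-0.68 without the highest cell, -0.89 with Neurog3 at 200 FPKM or more, -3.22 without cells with Sst). Without the highest cell Nr5a2 (-0.29), Apom (-0.21), Cym (-0.16) and Cox4i2 (-0.11) reversed in run 2, as did Nr5a2 (-0.80) and Apom (-0.63) with hormone genes under 10 FPKM. Cox4i2 also did without cells with Mki67 or Top2a (-0.45) or Sst (-0.39), Apom (-0.22) and F2 (0.81) without cells with Fev, and Ctrb1 (-0.55) with Neurog3 at 50 FPKM or more. In run 1 Pyy reversed with Neurog3 at 50 FPKM or more (-1.08), Dusp6 with Neurog3 at 200 FPKM or more (-0.23) and without cells with Fev (-1.27), Pnliprp1 with rescaled FPKM (0.037), and the tip and acinar median with no filter (-0.21) and without cells with Mki67 or Top2a (-1.94). The cause was not tested. The other values kept their direction where called, with 2179 of 3228 gene values and 522 of 876 list medians within the size of the change allowed. The setting without cells with Sst was chosen after seeing the data. Sets of 21 to 43 cells leave shares with wide intervals, and genes in under 5 cells are limited by the number of cells.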
